A study of Mus musculus with 9 samples.

Results

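The 43 genes described here code for lysosomal hydrolases, for proteins of the lysosomal membrane, for subunits of the V-ATPase and for transcription factors of the MiT/TFE family. They were taken as a list of mouse symbols and kept where the counts table held 10 or more counts in 3 or more libraries. All 43 met this rule, among 16817 of 27179 gene identifiers that did. Of them, 42 had 10 or more counts in every library, while Atp6v0d2 met the rule through the 3 EAE libraries alone. It therefore had to differ between EAE and the other groups. Counts and medians below include Atp6v0d2 except where it is said to be left out, and its part in them is no support. Expression was measured by poly-A selected RNA sequencing of spinal cord from C57BL/6 mice, which formed 3 groups with 3 biological replicates and 1 library a replicate. Whether a replicate was a single mouse is not stated. EAE+EHP-101 mice had experimental autoimmune encephalomyelitis (EAE), an autoimmune inflammation of the central nervous system that serves as a model of multiple sclerosis, and received EHP-101 orally at 20 mg/kg. EAE mice had the disease without the compound, and the third group carries the label Control with no further treatment stated. EHP-101 is an oral formulation of a cannabidiol derivative described as acting on PPAR gamma and on the cannabinoid receptor CB2. The sources used here do not give how EAE was induced, any vehicle, the age and sex of the mice, the clinical stage or the day of sampling. The design asks which transcripts differ in the diseased cord and which of them differ when EHP-101 is given.

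Lysosomes are the acidic compartments in which cells break down protein, lipid and glycan taken up from outside or delivered by autophagy. The V-ATPase, a membrane-embedded V0 sector joined to a cytosolic V1 motor, pumps protons into the lumen, and most lysosomal hydrolases work best at that low pH. TFEB, TFE3 and MITF bind E-box sequences in the promoters of many lysosomal genes and raise their transcription once inside the nucleus, so their activity cannot be read from their own transcript level. In the nervous system, phagocytic microglia and infiltrating macrophages are rich in cathepsins and CD68, while neurons use the V-ATPase in synaptic vesicles as well as in lysosomes. Inherited loss of several of these enzymes causes storage disease with neurodegeneration.

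Libraries held 30448507 to 32661741 counts over 19695 to 20093 genes with a count. Spinal segment genes (Hoxa7, Hoxc6, Hoxc8, Hoxd8) summed to between 149 and 256 CPM (read counts scaled to the effective library size) in the 9 libraries. The lowest sums were those of EAE replicate 1 (149 CPM) and EAE+EHP-101 replicate 3 (153 CPM), against 193 to 256 CPM in the other libraries. EAE+EHP-101 replicate 1 had the highest sum of neutrophil markers, 61.8 CPM, against 4.40 to 22.1 CPM in the other libraries. Control replicate 1 held 40.4 CPM of skeletal muscle markers, against 2.13 to 3.08 CPM in the other libraries. Across genes, gene length correlated with a library's deviation from the mean log2 CPM of all libraries, with Spearman coefficients of -0.335 to -0.030 in EAE+EHP-101, -0.327 to -0.259 in EAE and 0.244 to 0.410 in Control libraries. Whether these features of the libraries shape the results was not tested beyond the fits that leave a library out or remove the length trend.

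Promoter sequence was available from RefSeq (GRCm38.p6) for 36 of the 43 genes, as 250 bases before to 50 bases after each annotated start. It is shown because the MiT/TFE factors are known to bind the E-box CACGTG, above all where it lies within the longer form TCACGTGA. Both read the same on either strand, so a match counts for both strands, and every longer form also counts as an E-box. The E-box stood in 13 of the 36 promoters (36.1%), against 8.09% of 27025 genes with a promoter in the table and 11.1% of the 12726 that were also tested for expression. The longer form stood in 6 of 36 (16.7%), against 1.12% and 1.93% of the same sets. A match describes letters in this window and does not show binding. The stretch upstream of the deposited first exon of Ctsd (chr7:142387871-142388077, minus strand) held 2 E-boxes, in capitals here. A shorter stretch upstream of that of Lamp1 (chr8:13159061-13159134, plus strand) held 2 whole E-boxes. Further E-boxes of the Lamp1 promoter, whose first bases lay at -28 and -15 from the annotated start, reached beyond the end of this stretch.
Ctsd: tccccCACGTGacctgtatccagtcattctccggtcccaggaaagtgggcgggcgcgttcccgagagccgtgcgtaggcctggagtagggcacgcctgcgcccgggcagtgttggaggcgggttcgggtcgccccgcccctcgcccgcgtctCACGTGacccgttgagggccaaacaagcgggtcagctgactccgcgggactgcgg
Lamp1: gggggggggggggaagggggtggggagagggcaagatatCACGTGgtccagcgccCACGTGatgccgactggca
The longer form is shown, in capitals, in windows of 30 bases of Mcoln1 (chr8:3500462-3500491, plus strand), Atp6v0d1 (chr8:105566050-105566079, minus strand) and Atp6v1a (chr16:44139373-44139402, minus strand), which stand for the membrane proteins and the V-ATPase.
Mcoln1: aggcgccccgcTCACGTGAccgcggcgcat
Atp6v0d1: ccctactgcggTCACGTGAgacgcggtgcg
Atp6v1a: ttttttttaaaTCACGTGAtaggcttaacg
The other promoters with the longer form were those of Ctsa, Ctsd and Gla. Asah1, Atp6v0d2, Atp6v1b2, Atp6v1h, Ctsb, Ctsh and Npc1 were not in the table.

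In EAE cords the hydrolase genes were higher almost throughout, most of them were lower again in EAE+EHP-101 cords, and the V-ATPase genes moved little apart from Atp6v0d2. Against Control, 32 of the 43 genes were higher in EAE, 2 were lower (Atp6v1a and Atp6v1b2) and 9 did not pass (edgeR quasi-likelihood test, Benjamini-Hochberg adjusted p under 0.05 over 16749 genes). Over all genes tested 20.2% were higher and 16.7% lower, 37.0% in either direction. The median log2 fold change of the members was 0.43, that is 1.35-fold, beside 0.01 over all genes, and 17 of the 32 were higher by 1.5-fold or more. Leaving out Atp6v0d2, 31 of 42 were higher and 2 lower, with a median of 0.42. In 32 of the 43 genes every EAE library lay above every Control library, which held for 25.6% of all genes.

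Between EAE+EHP-101 and EAE, 24 of the 43 genes were lower in EAE+EHP-101, 0 were higher and 19 did not pass, against 4.81% of all genes lower, 0.430% higher and 5.24% in either direction. The members' median log2 fold change was -0.30, beside -0.00 over all genes. In 31 of the 43 genes every EAE+EHP-101 library lay below every EAE library, against 16.9% of all genes. Leaving out Atp6v0d2, 23 of 42 were lower and the median was -0.30. Without EAE replicate 2 the count of lower members was 18, and that over all genes was 348 in place of 805. Between EAE+EHP-101 and Control, 16 genes were higher, 2 were lower (again Atp6v1a and Atp6v1b2) and 25 did not pass, against 9.96% of all genes higher, 9.82% lower and 19.8% in either direction, with a members' median of 0.16. Among the fits without a library, the number of members called in this comparison fell most without EAE+EHP-101 replicate 2 or 3. The total of 18 genes became 1 without replicate 2 (Ctss) and 3 without replicate 3 (Ctss, Cd68 and Tfeb). It was 11 without Control replicate 1 and 12 without Control replicate 2. Calls over all genes fell as well, from 3314 to 629 without EAE+EHP-101 replicate 2. The 3 comparisons share libraries in pairs, so their counts are not independent of each other.

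**Figure D1:**
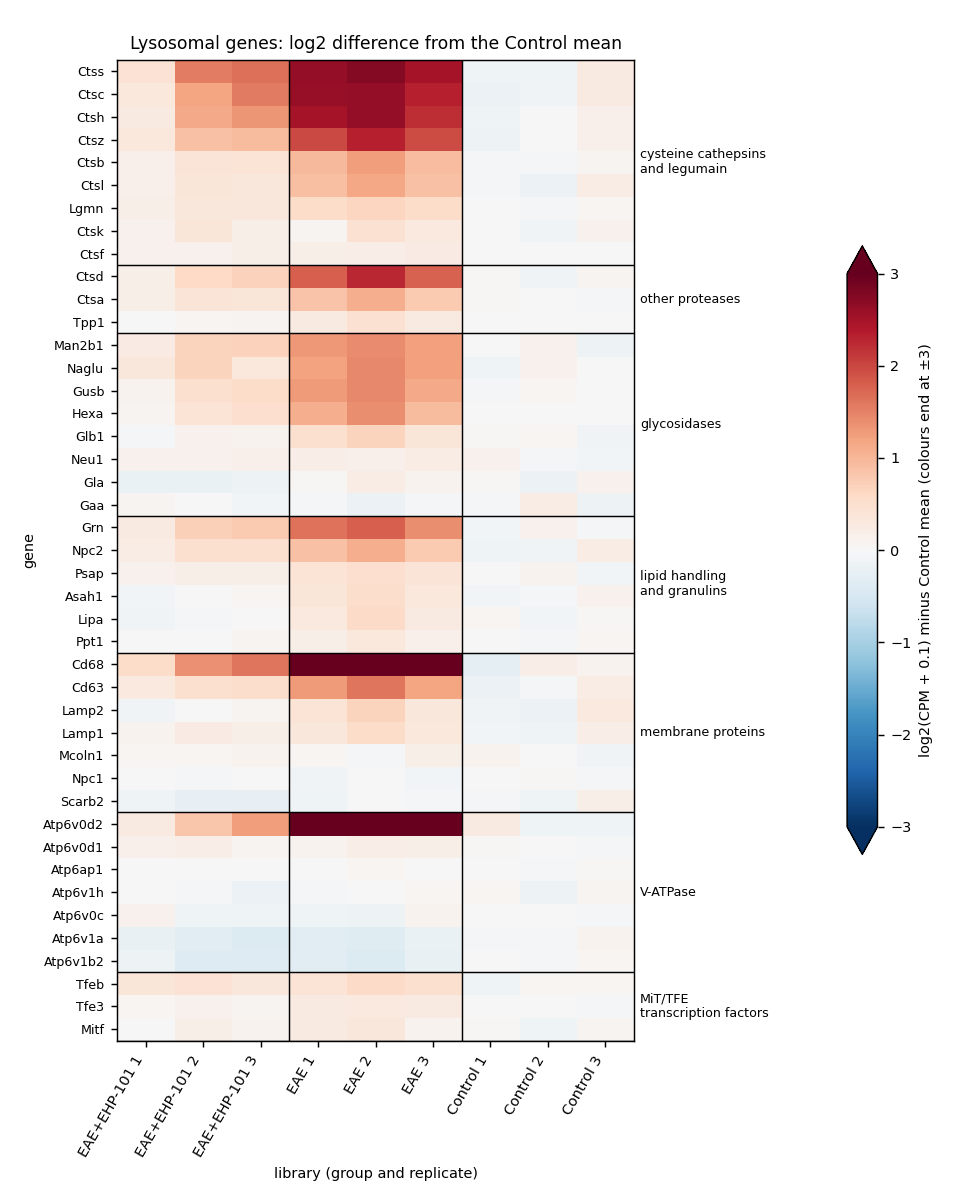
Difference of log2(CPM + 0.1) from the Control mean for each of the 43 genes (rows, grouped by role) in each of the 9 libraries (columns, EAE+EHP-101 left, EAE middle, Control right), with colours ending at 3 in either direction. The EAE columns are darkest in the upper rows of most roles, EAE+EHP-101 replicate 1 is paler than replicates 2 and 3, and most V-ATPase rows stay pale in all columns.

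Cysteine cathepsins and the asparaginyl endopeptidase legumain (Lgmn) were higher in EAE than in Control in 8 of 9 genes, with a median log2 fold change of 1.05, and 7 of 9 were lower in EAE+EHP-101 than in EAE. Cathepsin S (Ctss, gene 13040, chr3:95526786-95556403 in mm10, plus strand), which trims the invariant chain of MHC class II and stays active at neutral pH, had 161, 343 and 371 CPM in EAE+EHP-101 libraries, 744, 802 and 671 CPM in EAE libraries and 109, 108 and 143 CPM in Control libraries. All 3 groups were separate, with EAE+EHP-101 replicate 1 close to the highest Control library. The log2 fold change was 2.62 (SE 0.26, adjusted p = 4.74e-05) for EAE against Control, a rise of 6.16-fold, and -1.34 (SE 0.24, adjusted p = 0.00874) for EAE+EHP-101 against EAE. Ctss was also higher in EAE+EHP-101 than in Control by 2.43-fold (log2 1.28, SE 0.25, adjusted p = 0.00814), a call that held in all 18 alternatives.

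Cathepsin C (Ctsc, chr7:88278093-88310875), which activates the serine proteases of granulocytes and T cells, had 10.8, 20.1 and 25.8 CPM in EAE+EHP-101, 54.4, 55.2 and 44.5 CPM in EAE and 7.78, 8.19 and 10.5 CPM in Control libraries. It was higher in EAE than in Control by 5.81-fold (log2 2.54, SE 0.25) and lower in EAE+EHP-101 than in EAE (log2 -1.44, SE 0.23). Cathepsin H (Ctsh), an aminopeptidase, had 17.6, 32.2 and 36.8 CPM in EAE+EHP-101, 82.2, 90.6 and 68.0 CPM in EAE and 13.3, 14.4 and 16.1 CPM in Control libraries. Its log2 fold changes were 2.46 (SE 0.22) for EAE against Control and -1.47 (SE 0.21) for EAE+EHP-101 against EAE. Cathepsin Z (Ctsz), a carboxypeptidase, was higher in EAE by 4.28-fold and lower in EAE+EHP-101 by a log2 change of -1.36 (SE 0.15). In each of these 3 genes EAE+EHP-101 replicate 1 was the lowest of its group and lay just above the Control libraries.

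Cathepsins B and L (Ctsb, Ctsl), the most widespread endopeptidases of the family, changed less. Ctsb had 902, 1058 and 1083 CPM in EAE+EHP-101, 1584, 1939 and 1542 CPM in EAE and 779, 798 and 864 CPM in Control libraries, a log2 fold change of 1.05 (SE 0.10) for EAE against Control and -0.74 (SE 0.10) for EAE+EHP-101 against EAE. The exons of Ctsb share 774 bases (16.3% of its length) with Fdft1 on the opposite strand. Whether the counting used strand is not stated, so these reads may not have been told apart. Fdft1 had 26329 counts over all libraries against 332493 for Ctsb. Ctsl was 1.97-fold higher in EAE than in Control and had a log2 fold change of -0.70 (SE 0.11) for EAE+EHP-101 against EAE. Lgmn had 278, 310.3 and 312 CPM in EAE+EHP-101, 359.9, 383 and 363 CPM in EAE and 245, 235 and 258 CPM in Control libraries, and its fall in EAE+EHP-101 against EAE (log2 -0.30, SE 0.06, adjusted p = 0.021) ended without EAE replicate 1 or 2 or EAE+EHP-101 replicate 1 or 2 (adjusted p = 0.0561 to 0.13). Cathepsin F (Ctsf) was 1.15-fold higher in EAE (adjusted p = 0.00809), which ended without EAE replicate 2 (adjusted p = 0.0541) or with the length trend removed (adjusted p = 0.112). Cathepsin K (Ctsk), the collagenase of osteoclasts, did not pass, with 10.1, 11.998 and 10.6 CPM in EAE+EHP-101, 9.81, 12.8 and 11.4 CPM in EAE and 9.23, 8.61 and 10.1 CPM in Control libraries (log2 0.28, SE 0.12, adjusted p = 0.0815 for EAE against Control, and 0.0417 without EAE replicate 1).

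All 3 of the other proteases were higher in EAE and lower in EAE+EHP-101 than in EAE. The aspartic protease cathepsin D (Ctsd, gene 13033, chr7:142375916-142387870, minus strand), whose loss causes a neuronal ceroid lipofuscinosis, had 621, 836 and 893 CPM in EAE+EHP-101, 1897, 2631 and 1871 CPM in EAE and 564, 512 and 579 CPM in Control libraries. The 3 groups were separate, with EAE+EHP-101 replicate 1 nearest to the Control libraries. It was 3.87-fold higher in EAE than in Control (log2 1.95, SE 0.15, adjusted p = 2.78e-05), and its log2 fold change was -1.45 (SE 0.15, adjusted p = 0.000977) for EAE+EHP-101 against EAE. Protective protein cathepsin A (Ctsa), a carboxypeptidase that stabilises beta-galactosidase and neuraminidase, was 1.89-fold higher in EAE and had a log2 fold change of -0.61 (SE 0.08) for EAE+EHP-101 against EAE. Ctsa shares 495 bases with Pltp and 324 with Neurl2 on the opposite strand. Tripeptidyl peptidase 1 (Tpp1), also a ceroid lipofuscinosis gene, was 1.26-fold higher in EAE (adjusted p = 0.00177). Its fall in EAE+EHP-101 (log2 -0.28, SE 0.06, adjusted p = 0.0216) ended without EAE replicate 2, EAE+EHP-101 replicate 1 or EAE+EHP-101 replicate 2 (adjusted p = 0.0731 to 0.134).

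Glycosidases, which strip sugars from glycolipids and glycoproteins, divided into genes that rose and genes that did not pass. Of the 8, 6 were higher in EAE than in Control (median log2 fold change of the 8, 0.83) and 5 were lower in EAE+EHP-101 than in EAE. Alpha-mannosidase (Man2b1) had 54.9, 73.8 and 74.6 CPM in EAE+EHP-101, 114, 124 and 108 CPM in EAE and 46.4, 51.0 and 41.9 CPM in Control libraries, a rise of 2.48-fold in EAE. Beta-glucuronidase (Gusb) was 2.45-fold higher, the heparan sulfate enzyme Naglu 2.47-fold and Hexa, the alpha chain of beta-hexosaminidase, 2.23-fold. In EAE+EHP-101 against EAE the log2 fold changes were -0.77 for Man2b1, -0.90 for Gusb, -0.85 for Naglu and -0.81 for Hexa, with SE of 0.11 to 0.12 and adjusted p of at most 0.00357. These 4 genes did not overlap between EAE and either other group.

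The remaining glycosidases moved less. Beta-galactosidase (Glb1) had 24.98, 28.1 and 27.7 CPM in EAE+EHP-101, 35.9, 40.9 and 33.4 CPM in EAE and 26.6, 27.0 and 24.1 CPM in Control libraries, with log2 fold changes of 0.50 (SE 0.09) for EAE against Control and -0.45 (SE 0.09, adjusted p = 0.0113) for EAE+EHP-101 against EAE, which ended without EAE replicate 2 (adjusted p = 0.0638). Glb1 shares 151 bases with Tmppe on the same strand. Neuraminidase 1 (Neu1) passed for EAE against Control (log2 0.19, SE 0.06, adjusted p = 0.0344), and the call ended in 12 of the 18 alternatives, among them the fits without any single library other than Control replicate 1 (adjusted p = 0.061 to 0.173). The acid alpha-glucosidase gene Gaa, which degrades glycogen, did not pass, with 365, 343 and 326 CPM in EAE+EHP-101, 339.9, 308 and 336 CPM in EAE and 329, 401 and 313 CPM in Control libraries. Alpha-galactosidase A (Gla) did not pass between EAE and Control (log2 0.11, SE 0.08). It had 20.8, 20.8 and 21.4 CPM in EAE+EHP-101 and 24.6, 27.7 and 25.4 CPM in EAE libraries, groups that did not overlap, yet the log2 fold change of -0.30 missed the threshold (adjusted p = 0.0639). That value passed in 4 of the 18 alternatives, 2 of which left out Control replicate 2 or 3 (adjusted p = 0.0473 and 0.0435).

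Genes of lipid handling and granulin supply were all higher in EAE, 6 of 6 with a median log2 fold change of 0.42. Progranulin (Grn), the precursor of the granulins and a regulator of lysosomal function in microglia, had 57.9, 79.4 and 83.5 CPM in EAE+EHP-101, 148, 168 and 126 CPM in EAE and 45.7, 52.6 and 46.2 CPM in Control libraries. It was 3.06-fold higher in EAE than in Control (log2 1.61, SE 0.14, adjusted p = 3.28e-05), and its log2 fold change was -1.0 (SE 0.13, adjusted p = 0.00247) for EAE+EHP-101 against EAE. Npc2, which hands cholesterol to NPC1, was 1.88-fold higher in EAE. Its log2 fold change of -0.52 (SE 0.11, adjusted p = 0.0203) in EAE+EHP-101 against EAE ended without EAE replicate 1, EAE replicate 2 or EAE+EHP-101 replicate 1 (adjusted p = 0.0587 to 0.116). Prosaposin (Psap, chr10:60277628-60302600), the precursor of the saposins that present sphingolipids to hydrolases, had 1699, 1754 and 1755 CPM in EAE+EHP-101, 2058, 2197 and 2021 CPM in EAE and 1529, 1653 and 1464 CPM in Control libraries. The 3 groups were separate but near each other, with log2 fold changes of 0.43 (SE 0.06, adjusted p = 0.000499) for EAE against Control and -0.27 (SE 0.06, adjusted p = 0.034) for EAE+EHP-101 against EAE. Psap lost the EAE+EHP-101 call without Control replicate 1 or any EAE or EAE+EHP-101 library other than EAE replicate 3 (adjusted p = 0.0637 to 0.184), and with the replicate number as a block.

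Acid ceramidase (Asah1) and lysosomal acid lipase (Lipa), which cleave ceramide and cholesteryl esters, were 1.32-fold and 1.31-fold higher in EAE than in Control. In EAE+EHP-101 both overlapped Control, Asah1 with 84.6, 88.1 and 92.2 CPM in EAE+EHP-101, 115, 127 and 111 CPM in EAE and 84.5, 85.3 and 97.2 CPM in Control libraries. The log2 fold changes for EAE+EHP-101 against EAE were -0.42 (SE 0.07, adjusted p = 0.00788) for Asah1 and -0.44 (SE 0.09, adjusted p = 0.0121) for Lipa, whose call ended without EAE+EHP-101 replicate 2 (adjusted p = 0.0509). Palmitoyl-protein thioesterase (Ppt1) was 1.16-fold higher in EAE (adjusted p = 0.0189), which ended without Control replicate 1, Control replicate 2 or EAE replicate 2 (adjusted p = 0.0802 to 0.162).

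**Figure D2:**
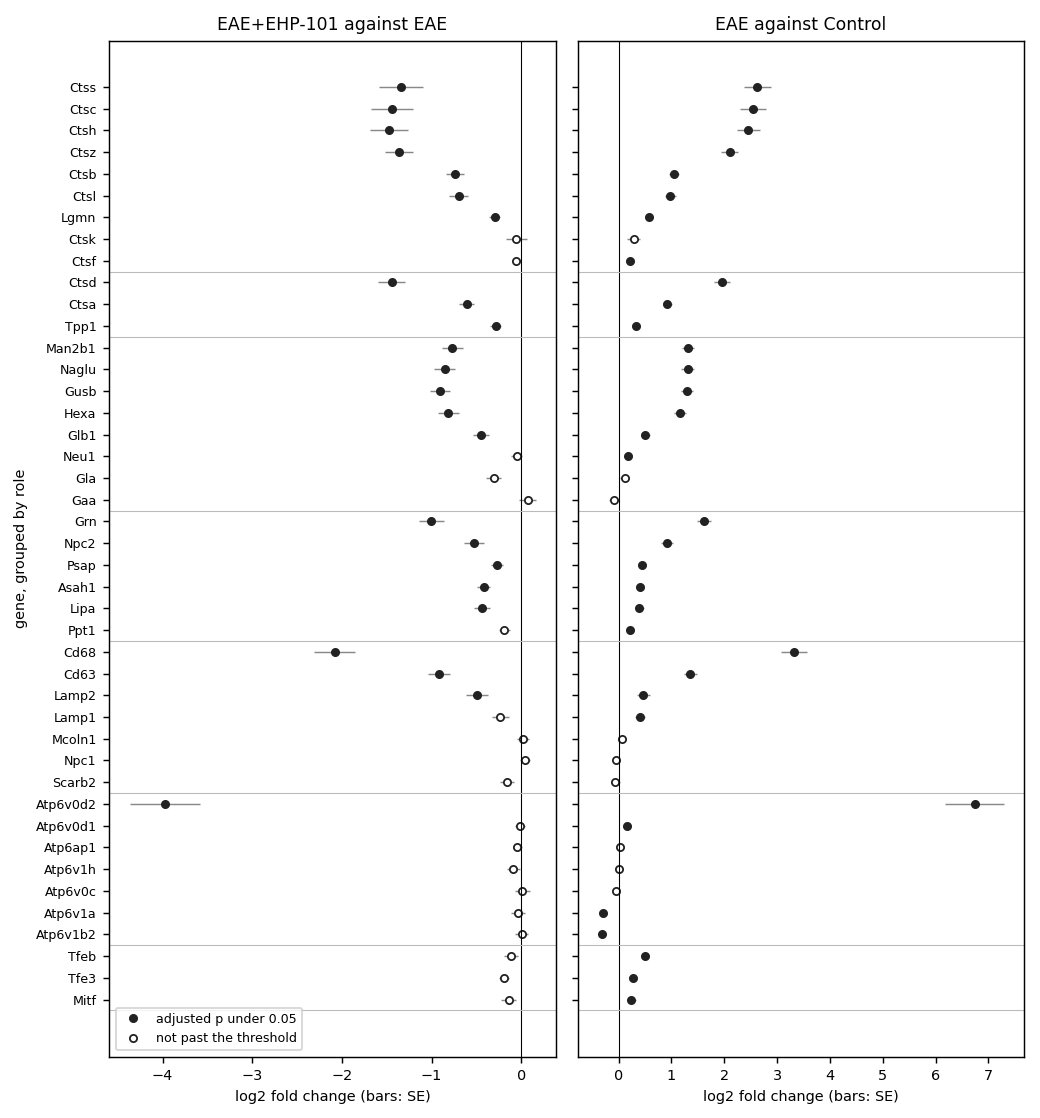
Log2 fold change with SE for each of the 43 genes, grouped by role, in EAE+EHP-101 against EAE (left) and in EAE against Control (right), with filled points for adjusted p under 0.05. The 24 filled points on the left all lie below 0, and 32 of the 34 on the right lie above 0. The value of 6.74 for Atp6v0d2 on the right depends on the prior count of the fit, since Control held 1 count in all.

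Membrane proteins held the largest fold change of the list other than that of Atp6v0d2. CD68 (Cd68, gene 12514, chr11:69664371-69666062, minus strand), the heavily glycosylated macrosialin of phagocyte lysosomes, had 7.80, 13.8 and 16.2 CPM in EAE+EHP-101, 47.1, 67.6 and 45.3 CPM in EAE and 4.30, 6.04 and 5.64 CPM in Control libraries. It was 9.996-fold higher in EAE than in Control (log2 3.32, SE 0.25, adjusted p = 2.78e-05) and lower in EAE+EHP-101 than in EAE by a log2 change of -2.08 (SE 0.23, adjusted p = 0.00139). The tetraspanin gene Cd63 was 2.55-fold higher in EAE and had a log2 fold change of -0.92 (SE 0.12) for EAE+EHP-101 against EAE. The structural membrane glycoprotein genes Lamp1 and Lamp2 changed by less. Lamp1 had 828, 912 and 869 CPM in EAE+EHP-101, 978, 1132 and 956 CPM in EAE and 731, 709 and 886 CPM in Control libraries, higher in EAE by 1.32-fold (log2 0.40, SE 0.09, adjusted p = 0.00687), while the log2 value of -0.23 for EAE+EHP-101 against EAE did not pass (adjusted p = 0.234).

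Lamp2, which also serves chaperone-mediated autophagy, was 1.38-fold higher in EAE than in Control (adjusted p = 0.0102), which ended without Control replicate 1, Control replicate 2 or EAE replicate 2 (adjusted p = 0.0536 to 0.0671). Its log2 fold change of -0.49 (SE 0.12, adjusted p = 0.0354) for EAE+EHP-101 against EAE ended without any EAE or EAE+EHP-101 library other than EAE replicate 3 (adjusted p = 0.0536 to 0.19). The cholesterol exporter gene Npc1, the glucocerebrosidase receptor gene Scarb2 and the calcium channel gene Mcoln1 did not pass in any of the 3 comparisons. Scarb2 had 158.5, 146 and 147 CPM in EAE+EHP-101, 159.2, 177 and 167 CPM in EAE and 167, 160.3 and 198 CPM in Control libraries. Every EAE+EHP-101 library lay below every library of the other groups, and the log2 value of -0.22 (SE 0.08) for EAE+EHP-101 against Control missed the threshold (adjusted p = 0.0794) but passed with the DESeq2 Wald test, with the length trend removed and without Control replicate 2 (adjusted p = 0.0427, 0.0472 and 0.0493). Mcoln1 had 60.6, 60.4 and 62.5 CPM in EAE+EHP-101, 59.9, 55.8 and 65.2 CPM in EAE and 62.1, 57.8 and 54.2 CPM in Control libraries, groups that overlapped. Its promoter, shown above, held the longer E-box form. The log2 fold changes for EAE against Control were 0.06 (SE 0.07) for Mcoln1, -0.06 (SE 0.06) for Npc1 and -0.06 (SE 0.08) for Scarb2, and each turned sign under at least 1 alternative.

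The V-ATPase genes did not move as a group. In EAE against Control 2 of 7 were higher (Atp6v0d1 and Atp6v0d2), 2 were lower and 3 did not pass the threshold. The median log2 fold change was 0.00. Atp6v0d2 (gene 242341, chr4:19876838-19922566, minus strand), the d2 form of a V0 subunit, known from osteoclasts and macrophages in mice, had 1, 3 and 5 counts in EAE+EHP-101, 54, 46 and 52 counts in EAE and 1, 0 and 0 counts in Control libraries. The EAE libraries stood apart from all others, and EAE+EHP-101 overlapped Control. Because the gene entered the list through its EAE libraries, its differences from EAE are a description with no test. The ratio of summed counts per effective library size was 146 for EAE against Control, and its exact 95% interval, which covers counting error only, ran from 25.8 to 5803. For EAE+EHP-101 against EAE the ratio was 0.0611 (0.0274 to 0.119), and for EAE+EHP-101 against Control 8.92 (1.24 to 391), which did not pass (adjusted p = 0.0625, and 0.0305 without EAE+EHP-101 replicate 1).

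The ubiquitous form of the same subunit, Atp6v0d1, had 214, 219 and 203 CPM in EAE+EHP-101, 204, 219 and 216 CPM in EAE and 196, 191 and 186 CPM in Control libraries. Its 1.12-fold rise in EAE (log2 0.16, SE 0.06, adjusted p = 0.0438) ended in 14 of the 18 alternatives, without any single library of the 9 (adjusted p = 0.0572 to 0.25) and with the length trend removed (adjusted p = 0.727). The log2 ratio of Atp6v0d2 to Atp6v0d1 within a library was -6.99 ± 0.12 in EAE and -10.8 ± 0.20 in Control libraries (SD, n = 3 each, with 0.1 CPM added to each gene). The difference of 3.77 is likewise a description, and the Control value is set by the 0.1 CPM added. With 1 CPM added the difference was 1.19.

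The V1 subunits A and B2, which form the catalytic head that hydrolyses ATP, were the members that fell in EAE. Atp6v1a (gene 11964, chr16:44085404-44139019, minus strand) had 559, 514 and 485 CPM in EAE+EHP-101, 521, 505 and 569 CPM in EAE and 628, 622 and 698 CPM in Control libraries. Atp6v1b2 (gene 11966, chr8:69088736-69113718, plus strand) had 496, 423 and 424 CPM in EAE+EHP-101, 448, 416 and 476 CPM in EAE and 556, 534 and 575 CPM in Control libraries. For both genes every EAE and EAE+EHP-101 library lay below every Control library, while EAE+EHP-101 and EAE overlapped. The log2 fold changes for EAE against Control were -0.29 (SE 0.07, adjusted p = 0.0112) for Atp6v1a and -0.31 (SE 0.08, adjusted p = 0.00835) for Atp6v1b2, and both calls held in all 18 alternatives. For EAE+EHP-101 against EAE they were -0.03 (SE 0.07) and 0.00 (SE 0.08), and neither passed. For EAE+EHP-101 against Control they were -0.32 (adjusted p = 0.0153) and -0.31 (adjusted p = 0.0194), calls that ended without EAE+EHP-101 replicate 2 (adjusted p = 0.0696 and 0.0928) or replicate 3 (adjusted p = 0.0679 and 0.0797).

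Summed CPM of 8 neuronal markers lay between 4616 and 4890 in EAE+EHP-101, 4392 and 4749 in EAE and 5171 and 5495 in Control libraries. Snap25 alone made up 3308, 3230 and 3721 CPM of the mean sums of 4720, 4571 and 5333 CPM, in the same order. The means of Stmn2 were 546, 527 and 504 CPM, and those of Rbfox3 143, 128 and 136 CPM. In the same order, Slc6a5 had means of 77.3, 75.2 and 178 CPM and Slc17a6 of 222, 216 and 302 CPM. Syt1 had 197, 183 and 242 CPM, Gad1 189, 176 and 211 CPM and Chat 38.0, 36.0 and 39.1 CPM. Of the 8 markers, 4 were lower and 0 higher in EAE than in Control, where 16.7% of all genes were lower. In EAE+EHP-101 against Control 2 were lower and 0 higher, where 9.82% of all genes were lower. The part of neurons in the V1 values was not tested. In cord tissue, fewer cells of a type and less RNA per cell cannot be told apart. Among the other V-ATPase members, Atp6v1h, the V1 regulatory subunit H, Atp6ap1, an accessory subunit, and Atp6v0c, the proteolipid ring subunit, had log2 fold changes of 0.00, 0.03 and -0.05 for EAE against Control and did not pass in any comparison. Under some alternatives Atp6v1h and Atp6ap1 turned sign. Atp6v0c has a near-identical pseudogene in the table, Atp6v0c-ps2, so its counts depend on how shared reads were assigned.

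**Figure D3:**
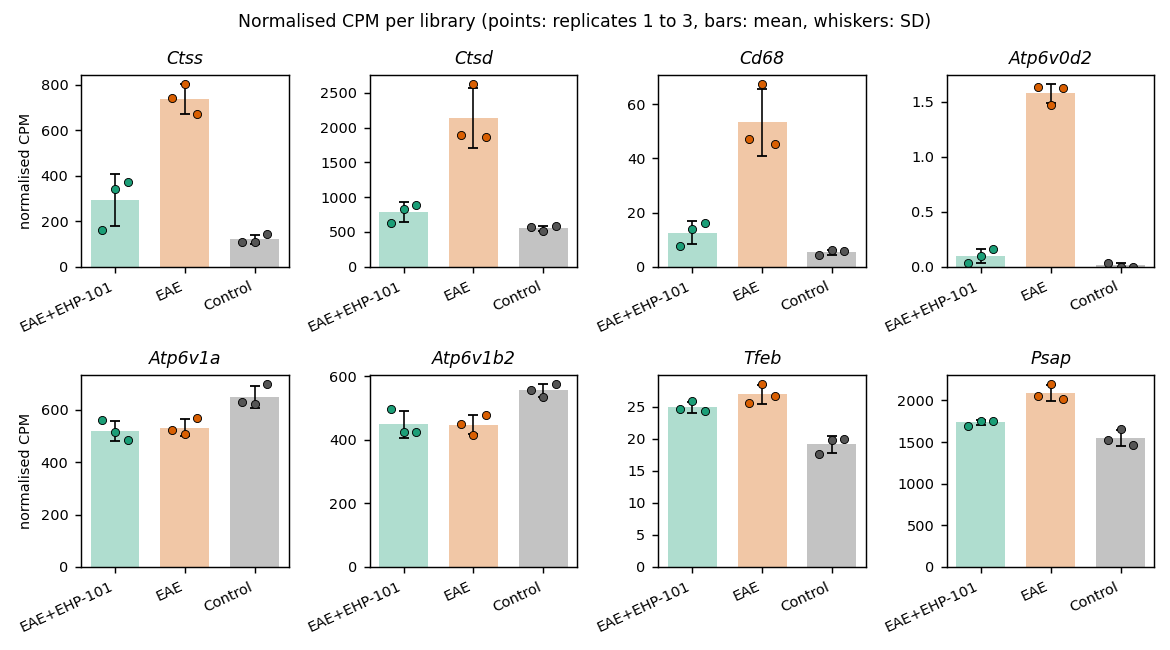
Normalised CPM of 8 of the genes in each library, with the mean (bar) and SD (whisker) of 3 libraries per group and axes that start at 0. Ctss, Ctsd, Cd68 and Atp6v0d2 are highest in EAE, with EAE+EHP-101 between EAE and Control in the means, Atp6v1a and Atp6v1b2 are highest in Control, and Tfeb is similar in EAE+EHP-101 and EAE.

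All 3 MiT/TFE genes passed as higher in EAE than in Control, by small amounts, and 0 of the 3 passed between EAE+EHP-101 and EAE. Tfeb (gene 21425, chr17:47737037-47792416, plus strand) had 24.6, 25.9 and 24.3 CPM in EAE+EHP-101, 25.6, 28.5 and 26.7 CPM in EAE and 17.6, 19.8 and 20.0 CPM in Control libraries. Both EAE groups lay above all Controls and overlapped each other. The log2 fold change was 0.49 (SE 0.07, adjusted p = 0.000535) for EAE against Control, -0.11 (SE 0.07, adjusted p = 0.514) for EAE+EHP-101 against EAE and 0.38 (SE 0.07, adjusted p = 0.00859) for EAE+EHP-101 against Control, the last of which ended without EAE+EHP-101 replicate 2 (adjusted p = 0.0564). Tfe3 had 34.7, 36.3 and 35.1 CPM in EAE+EHP-101, 40.1, 41.2 and 40.0 CPM in EAE and 33.8, 33.9 and 32.5 CPM in Control libraries, with log2 fold changes of 0.28 (SE 0.05) for EAE against Control and -0.19 (SE 0.05, adjusted p = 0.0653) for EAE+EHP-101 against EAE. The second of these passed without Control replicate 3 and with the length trend removed (adjusted p = 0.0471 and 0.0474).

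Mitf was 1.18-fold higher in EAE (log2 0.24, SE 0.08, adjusted p = 0.0478), but the call ended in 14 of the 18 alternatives, among them 8 of the 9 fits without a library (adjusted p = 0.052 to 0.263, the exception being EAE replicate 3). The log2 ratio of Mitf to Tfeb was -0.04 ± 0.12 in EAE and 0.22 ± 0.17 in Control libraries (SD, n = 3 each, exact two-sided permutation p = 0.2, adjusted 0.225 over 9 ratio comparisons, where 3 against 3 cannot go below 0.1). Of the genes with an E-box in the promoter, 9 of 13 were higher in EAE and 1 lower, with a median log2 fold change of 0.40, beside 19 of 23 higher and a median of 0.47 without the motif. For the longer form the counts were 3 of 6 higher and 1 lower with a median of 0.14, beside 25 of 30 and a median of 0.48 without it.

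Compared per length, as TPM (counts divided by exon length and scaled to a fixed total), the members differed widely in level. The members summed to 9030, 9909 and 9958 TPM in EAE+EHP-101, 13713, 15023 and 13352 TPM in EAE and 8573, 8752 and 8747 TPM in Control libraries. The EAE libraries lay above all others, and each EAE+EHP-101 library lay above the highest Control library. Psap ranked highest in EAE+EHP-101 and Control (1647 ± 13.8 and 1524 ± 142 TPM, SD, n = 3 each), and Ctsd ranked highest in EAE (2730 ± 470.4 TPM, beside 1922 ± 38.7 TPM for Psap). Ctss ranked 4 in EAE+EHP-101, 3 in EAE and 12 in Control, with 556 ± 214, 1368 ± 96.5 and 237 ± 32.3 TPM. Within EAE, Ctss and the next gene, Lamp1 (1136 ± 74.6 TPM), were separate in all libraries, as were all neighbours down to rank 8 (Ctsb, Lgmn, Atp6ap1 and Atp6v1b2). Further down most neighbours overlapped, 26 of the 42 neighbouring pairs in all.

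Of the net rise in mean summed TPM of EAE over Control, Ctsd held 37.0% and Ctss 21.2%, and together with Ctsb, Psap and Ctsz these 5 genes held 78.9%. TPM values share a fixed total, so a high gene lowers the value of others. The ratio of Ctss to Ctsl, both endopeptidases able to process the invariant chain, was 0.86 ± 0.55 on the log2 scale in EAE+EHP-101, 1.597 ± 0.09 in EAE and -0.05 ± 0.07 in Control libraries (SD, n = 3 each). The groups did not overlap in this ratio, with differences of -0.73 for EAE+EHP-101 against EAE, 1.65 for EAE against Control and 0.92 for EAE+EHP-101 against Control (each exact permutation p = 0.1, adjusted 0.15).

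**Figure D4:**
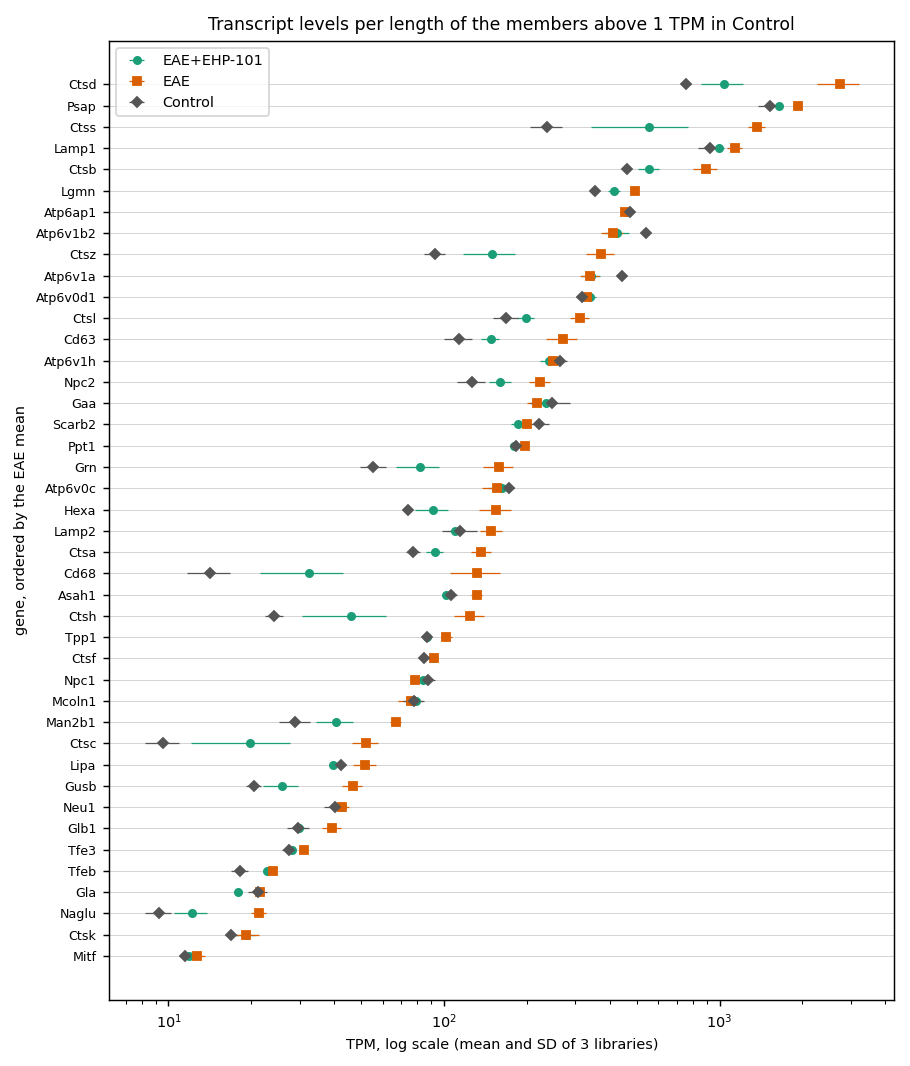
Mean TPM with SD of 3 libraries per group on a log axis for the 42 members above 1 TPM in the Control mean, ordered by the EAE mean (circles EAE+EHP-101, squares EAE, diamonds Control). Ctsd, Ctss, Ctsz, Cd68, Ctsh and Ctsc show wide gaps between EAE and Control, while Npc1, Mcoln1, Atp6ap1 and Atp6v1h show the 3 groups close together.

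The 17 genes that were 1.5-fold or more higher in EAE were then placed, library by library, on a scale from the Control mean (0) to the EAE mean (100) of log2(CPM + 0.1). Their median position was 15.1% in EAE+EHP-101 replicate 1, 41.8% in replicate 2 and 44.3% in replicate 3. For the 1533 genes of the whole table under the same criterion the medians were 19.0%, 53.9% and 59.9%. Positions share the EAE and Control libraries that chose the genes and are given as a description. Averaged over the 3 libraries, Ctsd (25.3%) lay nearest Control among the 16 genes other than Atp6v0d2, and Ctss (45.6%) and Npc2 (42.96%) nearest EAE. The position of Atp6v0d2 is set by the 0.1 CPM added, since Control held 1 count, and is not ranked. Naglu was the gene with the highest position in replicate 1 (25.6%), where it lay above its own value in replicate 3 (25.02%).

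**Figure D5:**
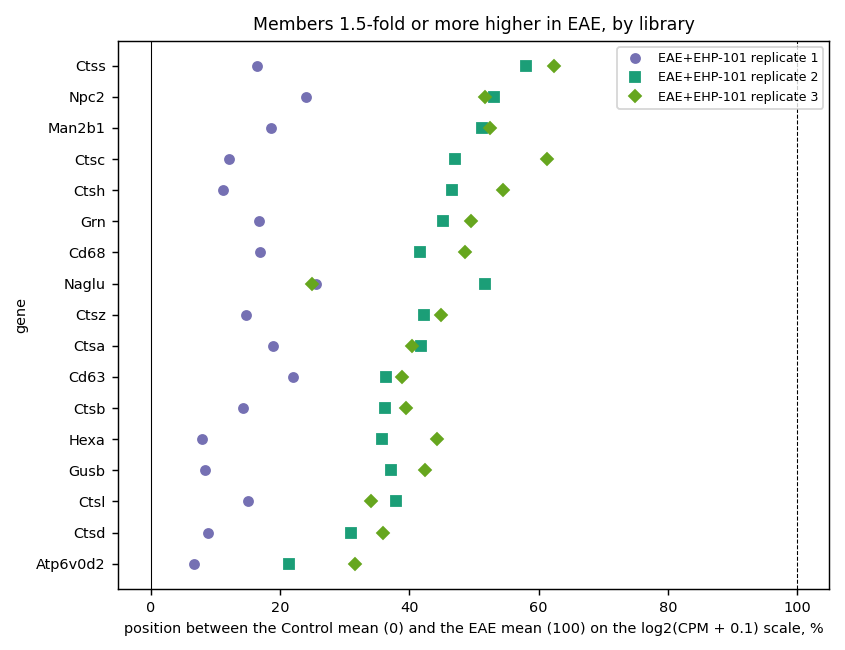
Position of each EAE+EHP-101 library between the Control mean (0%) and the EAE mean (100%) on the log2(CPM + 0.1) scale for the 17 genes that were 1.5-fold or more higher in EAE than in Control. Replicate 1 (circles) lies left of replicate 2 (squares) in every gene and replicate 3 (diamonds) lies between 25.02% and 62.4%.

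The same libraries stood out gene after gene. EAE replicate 2 was the highest EAE library in 29 of the 32 members that were higher in EAE (90.6%), against 65.3% of the 3391 genes of the table that were higher. EAE+EHP-101 replicate 1 was the lowest of its group in 28 of the 32 (87.5%), against 72.6%. Members are read from the same libraries, so these counts describe libraries and are not repeated observations.

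The sums of pan-myeloid, homeostatic microglia, infiltrating cell, T cell and fibroblast markers moved in the same directions as most hydrolases. The neutrophil sum instead had its highest mean in EAE+EHP-101, 34.6 CPM, beside 17.0 CPM in EAE and 7.42 CPM in Control libraries. The 6 pan-myeloid markers summed to between 178 and 281 CPM in EAE+EHP-101, 388 and 496 CPM in EAE and 133 and 168 CPM in Control libraries, and 6 of 6 were higher in EAE than in Control and lower in EAE+EHP-101 than in EAE. The 8 homeostatic microglia markers summed to between 258 and 335 CPM in EAE+EHP-101, 398 and 519 CPM in EAE and 217 and 272 CPM in Control libraries, with 6 of 8 higher in EAE than in Control and 5 of 8 lower in EAE+EHP-101 than in EAE. Markers of infiltrating monocytes and macrophages summed to 39.6 to 83.3 CPM in EAE+EHP-101, 409 to 571 CPM in EAE and 21.1 to 27.0 CPM in Control libraries, with 5 of 8 higher in EAE than in Control and 4 of 8 lower in EAE+EHP-101 than in EAE. Lyz2 alone made up 43.7, 436 and 9.36 CPM of the mean sums of 61.2 CPM in EAE+EHP-101, 466 CPM in EAE and 23.4 CPM in Control libraries. Fibroblast markers summed to between 109.5 and 131 CPM in EAE+EHP-101, 188 and 195 CPM in EAE and 109.98 and 112 CPM in Control libraries, with 4 of 5 higher in EAE than in Control and 4 of 5 lower in EAE+EHP-101 than in EAE. Of 4 astrocyte markers 2 were higher in EAE than in Control and 1 was lower in EAE+EHP-101 than in EAE. Neutrophil markers summed to 20.1 to 61.8 CPM in EAE+EHP-101, 8.83 to 21.7 CPM in EAE and 4.40 to 13.2 CPM in Control libraries. Of 5 tested, 0 passed in EAE against Control and 5 were higher in EAE+EHP-101 than in Control. T cell markers summed to 0.832 to 5.67 CPM in EAE+EHP-101, 10.1 to 12.4 CPM in EAE and 0.253 to 0.591 CPM in Control libraries. Of these, 6 of 6 were higher in EAE than in Control and 3 of 6 lower in EAE+EHP-101 than in EAE. Most T cell markers reached 10 counts in 3 or more libraries only through their EAE libraries, so their differences from EAE are a description. Also higher in EAE+EHP-101 than in Control were 6 of 6 pan-myeloid, 4 of 8 homeostatic microglia and 5 of 8 infiltrating cell markers. The same held for 6 of 6 T cell and 1 of 5 fibroblast markers, while 2 of 4 astrocyte markers were lower. Over all genes 20.2% were higher in EAE than in Control and 4.81% lower in EAE+EHP-101 than in EAE. In EAE+EHP-101 against Control 9.96% were higher and 9.82% lower. The part of each cell type in the values of the lysosomal genes was not tested. For Atp6v0d2, Acp5 and Ctsk, which osteoclasts express highly, the 5 osteoclast markers summed to 17.0 to 18.6 CPM in EAE+EHP-101, 14.9 to 16.8 CPM in EAE and 9.60 to 17.9 CPM in Control libraries. Most of that sum was Mmp9, at 14.4 CPM in EAE+EHP-101, 12.2 CPM in EAE and 10.2 CPM in Control libraries on average. Of the 4 tested, 1 was higher in EAE than in Control and lower in EAE+EHP-101 than in EAE. It was the fusion gene Dcstamp, with 7, 4 and 8 counts in EAE+EHP-101, 20, 21 and 14 counts in EAE and 5, 5 and 10 counts in Control libraries. Its log2 fold changes were 1.38 for EAE against Control and -1.47 for EAE+EHP-101 against EAE. Dcstamp reached 10 counts in 3 or more libraries only through its EAE libraries, so these differences are a description and its calls are no support. The other fusion gene, Ocstamp, had 0 to 6 counts in each library.

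Other genes of the same pathways were read from 7 lists of 104 genes, 97 of them tested. In EAE against Control 50 of the 97 were higher and 8 lower, beside 20.2% and 16.7% of all genes. In EAE+EHP-101 against EAE 0 were higher and 18 lower, beside 0.430% and 4.81% of all genes. In EAE+EHP-101 against Control 21 were higher and 3 lower, beside 9.96% and 9.82% of all genes. Counts and medians of these lists, here and below, take in Acp5, Ctse and Mcoln2. Each of them reached 10 counts in 3 or more libraries only through its EAE libraries, so its part in them is no support. Of 28 further hydrolases and activators 20 were higher and 1 lower in EAE (median log2 fold change 0.31), and 9 were lower in EAE+EHP-101 than in EAE (median -0.19). Acp5, the tartrate-resistant acid phosphatase, was 13.9-fold higher in EAE from low levels, with 0.224, 0.582 and 0.736 CPM in EAE+EHP-101, 3.71, 3.43 and 2.90 CPM in EAE and 0.263, 0.158 and 0.295 CPM in Control libraries. Outside EAE fewer than 3 libraries reached 10 counts of Acp5, so this rise is a description. The iduronate sulfatase gene Ids was the hydrolase that fell, with a log2 change of -0.49 (SE 0.06, adjusted p = 0.000133) for EAE against Control.

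Further V-ATPase subunits were mixed, with 5 of 13 higher and 1 lower in EAE. Tcirg1, the a3 subunit of V0 found in lysosomes of macrophages and in osteoclasts, had 29.2, 39.1 and 42.4 CPM in EAE+EHP-101, 55.1, 56.3 and 49.0 CPM in EAE and 26.7, 26.4 and 19.5 CPM in Control libraries. It was 2.21-fold higher in EAE than in Control (adjusted p = 0.000203), and its log2 fold change of -0.53 (SE 0.14) for EAE+EHP-101 against EAE missed the threshold (adjusted p = 0.0534). The a1 subunit gene Atp6v0a1, the form of synaptic vesicles, was the one lower in EAE than in Control, with a log2 change of -0.38 (SE 0.09, adjusted p = 0.00816). Of the 13, 1 was lower in EAE+EHP-101 than in EAE, Atp6v0e (log2 -0.45, SE 0.11, adjusted p = 0.0318). Atp6v0e was 1.66-fold higher in EAE than in Control (adjusted p = 0.000493). Cystatins, inhibitors of cysteine cathepsins, were higher in EAE in 3 of 4 genes and lower in EAE+EHP-101 than in EAE in the same number. Cst7, which inhibits cathepsins inside cells, had 0.320, 4.37 and 4.29 CPM in EAE+EHP-101, 25.1, 34.8 and 25.2 CPM in EAE and 0.131, 0.190 and 0.655 CPM in Control libraries, with EAE+EHP-101 replicate 1 inside the Control range. Cst3, the secreted cystatin C, was 1.68-fold higher in EAE.

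Genes that regulate TFEB (7 of 14 higher, 2 lower), autophagy genes (5 of 15 higher, 1 lower), sorting genes (3 of 6 higher, 2 lower) and other membrane proteins (7 of 17 higher, 1 lower) had median log2 fold changes of 0.17, 0.03, 0.00 and 0.11 in EAE against Control, beside the same 20.2% of all genes higher and 16.7% lower. The remaining MiT/TFE gene, Tfec, known from macrophages in mice, was too low to be tested. It had 2, 0 and 2 counts in EAE+EHP-101, 12, 9 and 12 counts in EAE and 0, 0 and 1 counts in Control libraries, a ratio of 31.7 for EAE against Control (exact 95% interval 5.31 to 1289).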

How the data were processed

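RNA of 9 spinal cord samples had been sequenced as poly-A selected stranded libraries with single-end 50 base reads, per the labels' protocols. The authors deposited raw read counts per gene, with Entrez identifiers, exon coordinates and lengths, per the file headers. The submitters' processing notes name the build mm10 and, with no role given, featureCounts 1.6.1, HISAT2 2.1.0, Trimmomatic 0.36 and DESeq2 1.20.0. The strand setting and the handling of multiply mapped reads were not stated. Symbols for 25275 of 27179 identifiers and promoters came from RefSeq tables of GRCm38.p6.

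In R 4.3.3, edgeR 4.0.16 kept 16749 genes with filterByExpr, scaled libraries by TMM and fitted all 9 libraries by quasi-likelihood, each group having its own mean. All 3 contrasts were adjusted by Benjamini-Hochberg over the 16749 genes and called under 0.05. An SE was taken as the size of the log2 fold change over the square root of F. CPM use effective library sizes, and TPM use the deposited counts and exon lengths. Ratios within a library were compared by exact permutation tests on log2(CPM + 0.1). Intervals of count ratios are exact, at 95%, for counting error only. P-values rest on the spread among the biological replicates. No library was a repeat of another, since chi-square per degree of freedom between libraries of a group ran from 6.64 to 27.5.

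The 43 genes, the 7 further gene lists and the 14 lists of cell markers were chosen with earlier results of these data known. Every member could be named, and of the further lists the called genes with the 3 smallest p per contrast, plus Tfec, Cst7, Cst3, Tcirg1 and Acp5. Atp6v0a1, Ctse, Dcstamp, Ocstamp, Mmp9, Lyz2 and the individual neuronal markers were named after their values were seen. Some genes of these lists are not reported here. The 18 alternatives were 3 other scalings, 2 other filters, the Wald test of DESeq2 1.42.0, a fit of only the groups compared, the replicate number as a block, removal of the length trend (lowess, span 0.3) and each library left out in turn. The fit was also run on simulated counts, with an outcome that is not reported here. The labels state no pairing by replicate number. Deviations of same-numbered EAE and EAE+EHP-101 libraries had correlations of -0.098, 0.123 and -0.187, which with 3 libraries a group cannot exclude a pairing.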

Additional observations from a re-analysis of the deposited data

How the results depend on the processing

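No called member changed sign in any alternative. For EAE against Control 28 of 34 calls on members held in all 18 alternatives, for EAE+EHP-101 against EAE 17 of 24, and for EAE+EHP-101 against Control 1 of 18 (Ctss). The cause of each change below was not tested. Without 1 library, members called for EAE+EHP-101 against Control numbered 1 to 20 (1 to 18 higher, 0 to 4 lower), lowest without EAE+EHP-101 replicate 2. Counts over all genes were lowest without that library for the same comparison (629 to 3739 called, 237 to 1712 higher, 392 to 2065 lower). They were lowest without EAE replicate 2 for EAE+EHP-101 against EAE (370 to 1170 called, 22 to 249 higher, 348 to 921 lower) and for genes higher in EAE than in Control (2160 to 3399). With the length trend removed, 1701 genes were lower in EAE than in Control, and 1553 were called for EAE+EHP-101 against Control (761 higher, 792 lower). Genes higher in EAE+EHP-101 than in EAE numbered 151 with the DESeq2 Wald test and 169 with those groups alone in the fit, against 72. With 1 CPM added in place of 0.1, the log2 ratio of Atp6v0d2 to Atp6v0d1 differed by 1.19 between EAE and Control, by -1.225 between EAE+EHP-101 and EAE and by -0.0354 between EAE+EHP-101 and Control. Uncalled members turned sign near 0. For EAE against Control, Atp6v1h was at -0.0104 with DESeq2 size factors or the Wald test, -0.00238 with upper quartile factors, -0.00518 with those groups alone and -0.0870 with the length trend removed, where Npc1 was at 0.0855, Mcoln1 at -0.0346 and Atp6ap1 at -0.0371. Without 1 library the ranges were -0.0968 to 0.0209 for Atp6v1h, -0.0182 to 0.0320 for Atp6ap1, -0.0229 to 0.0769 for Mcoln1 and -0.153 to 0.00405 for Scarb2, and for EAE+EHP-101 against EAE -0.0871 to 0.0221 for Atp6v1a and -0.0724 to 0.0573 for Atp6v1b2. With only EAE+EHP-101 and Control in the fit, Atp6v0d2 was too low to be tested. Depth limits Atp6v0d2 and Tfec most, where Control held 1 count each.

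With the replicate number as a block, a pairing that the labels do not state, called members were 31 for EAE against Control, 23 for EAE+EHP-101 against EAE and 17 for EAE+EHP-101 against Control. Over all genes the block gave 44 genes higher in EAE+EHP-101 than in EAE and 1095 higher in EAE+EHP-101 than in Control.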
